A study of Homo sapiens with 6 samples.

Results

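HTR1E and other monoamine receptor genes were followed in SH-SY5Y cells, a human neuroblastoma line, after treatment with siControl or with an siRNA against PSF (siPSF), a nuclear RNA-binding and splicing factor encoded by SFPQ. The list held 9 serotonin, dopamine and adrenergic receptor genes, chosen by symbol: HTR1E, HTR1D, HTR2B, HTR7, DRD2, DRD4, ADRA2A, ADRA2C and ADRB1. Of these 9, 6 had a row among the 21301 genes of the deposited RNA-seq table, and the other 3 (HTR1D, HTR7 and ADRB1) were not analysed here. All 6 passed the filter on low counts, which left 19694 genes to test. HTR1E was put on the list because of its fall in the contrast described here, so its values are given as a description with no test, and the remaining genes were selected on the same table with its results known.

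Both groups were the same cells, differing in the siRNA, given at 10 nM for 72 h, with 3 libraries per group. The study describes its replicates as biological, the sample labels do not say how they were cultured, and the p-values measure the spread between these libraries. The libraries held between 101540520 and 132420931 counts on genes. Levels of 1 gene are given as CPM, read counts scaled by library size, and levels of different genes are compared as FPKM, which also divides by exon length. SFPQ itself stood at 372, 356 and 401 CPM in siControl and at 209, 193 and 165 CPM in siPSF, a log2 fold change of -0.99 (standard error 0.10). Of the markers of the labelled line, all 8 noradrenergic neuroblastoma genes had a row, with HAND2 at 352 to 408 FPKM and PHOX2A at 147 to 184 FPKM, but TH, the first enzyme of catecholamine synthesis, did not exceed 0.315 FPKM in any library. The summed level of these 8 markers was 1351 to 1522 FPKM in siControl and 1129 to 1276 FPKM in siPSF. Of 7 mesenchymal markers, 6 had a row, with a summed level of 12.7 to 14.0 FPKM in siControl and 9.92 to 14.4 FPKM in siPSF. FN1, the one with the highest mean in both groups, was called lower (log2 fold change -0.60), while FOSL1, COL1A1, CD44, SNAI2 and YAP1 had values of 0.83, 0.55, 0.52, 0.39 and 0.35 and were not called in the edgeR fit. The astrocyte markers GFAP, AQP4 and SLC1A3 had no row. Of 3 serotonergic neuron markers, FEV was at 82.5 to 104 FPKM, SLC6A4 was at most 0.0211 FPKM and TPH2 had no row. The part of these shifts in the receptor values was not tested, and in bulk RNA fewer cells that express a receptor cannot be told apart from less receptor RNA per cell.

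Monoamine receptors are, with few exceptions, G protein-coupled receptors of the cell surface that bind serotonin, dopamine, noradrenaline or histamine. HTR1E, DRD2, DRD4, ADRA2A and ADRA2C encode receptors that couple to inhibitory G proteins, lower cyclic AMP and open potassium channels through the released beta-gamma subunits, while the receptor encoded by HTR2B couples to phospholipase C. In sympathetic neurons, the lineage from which neuroblastoma arises, alpha2 adrenergic receptors act as autoreceptors. Both these and the dopamine receptor encoded by DRD2 restrain transmitter release.

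The upstream sequences of HTR1E and ADRA2C are shown because these genes moved furthest in opposite directions among the 6. Each run is 200 bases on the plus strand of GRCh38.p14 from the RefSeq promoter table, ends 50 bases before the annotated gene start and carries its CpG dinucleotides in capitals. The HTR1E run lies at chr6:86937278-86937477 and the ADRA2C run at chr4:3766135-3766334.
HTR1E: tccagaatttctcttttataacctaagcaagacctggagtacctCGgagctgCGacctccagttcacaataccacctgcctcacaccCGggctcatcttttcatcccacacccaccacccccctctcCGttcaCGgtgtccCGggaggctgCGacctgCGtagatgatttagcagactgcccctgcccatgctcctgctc
ADRA2C: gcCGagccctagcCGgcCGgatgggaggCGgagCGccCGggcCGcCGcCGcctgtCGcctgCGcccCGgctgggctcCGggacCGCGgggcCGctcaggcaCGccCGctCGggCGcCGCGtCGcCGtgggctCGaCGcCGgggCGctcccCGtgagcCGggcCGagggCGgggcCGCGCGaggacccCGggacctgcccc
The HTR1E run held 8 CpG and 57% G or C, close to the median of 8 CpG and 57.5% over 35116 promoters cut in the same way. The ADRA2C run held 36 CpG and 85.5% G or C, and 99.5% of all promoters held as few CpG or fewer. The GC box GGGCGG, searched on both strands, was found in the ADRA2C run and not in the HTR1E run, and 34.96% of all promoters held it. The TATA box letters TATAAA, searched in the same way, were found in the HTR1E run and not in the ADRA2C run. The HTR1E match was on the minus strand, near the end of the run furthest from the gene start. Of all promoters, 7.63% held these letters. Promoters of DRD4 and ADRA2A, which were also matched, held 25 and 17 CpG, with the GC box and without TATAAA in both. These counts describe the letters in the window and no binding was measured. Since the 50 bases next to each gene start were outside the window, the search cannot tell whether any of these promoters has a TATA box there.

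HTR1E, a serotonin receptor gene (gene ID 3354), spans chromosome 6 of GRCh38 from 86937528 to 87016679 on the plus strand, with 2 exons in 79.2 kb of which 97.7% is intron. Its counts were 1421, 1585 and 1516 in the siControl libraries and 338, 268 and 167 in the siPSF libraries. After normalisation the levels were 11.7, 11.9 and 12.0 CPM in siControl and 2.85, 2.54 and 1.69 CPM in siPSF. The siControl libraries were nearly level with each other, all 3 siPSF libraries lay far below them, and the groups did not overlap. The mean level was 11.9 ± 0.178 CPM in siControl against 2.36 ± 0.596 CPM in siPSF (SD, n = 3 each), which is 19.9% of siControl and a 5.03-fold difference. The spread relative to the mean was 1.50% in siControl and 25.3% in siPSF. The log2 fold change fitted by edgeR was -2.33 (standard error 0.17, 95% interval -2.70 to -1.95), the 18th lowest of the 19694 genes tested. Over all genes, 41 (0.208%) had a log2 fold change below -2, a share that is given for scale since this contrast brought HTR1E onto the list. In siPSF the library with the lowest SFPQ (replicate 3, 165 CPM) also had the lowest HTR1E, and the library with the highest SFPQ (replicate 1, 209 CPM) the highest HTR1E, which is a description of 3 libraries.

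**Figure D1:**
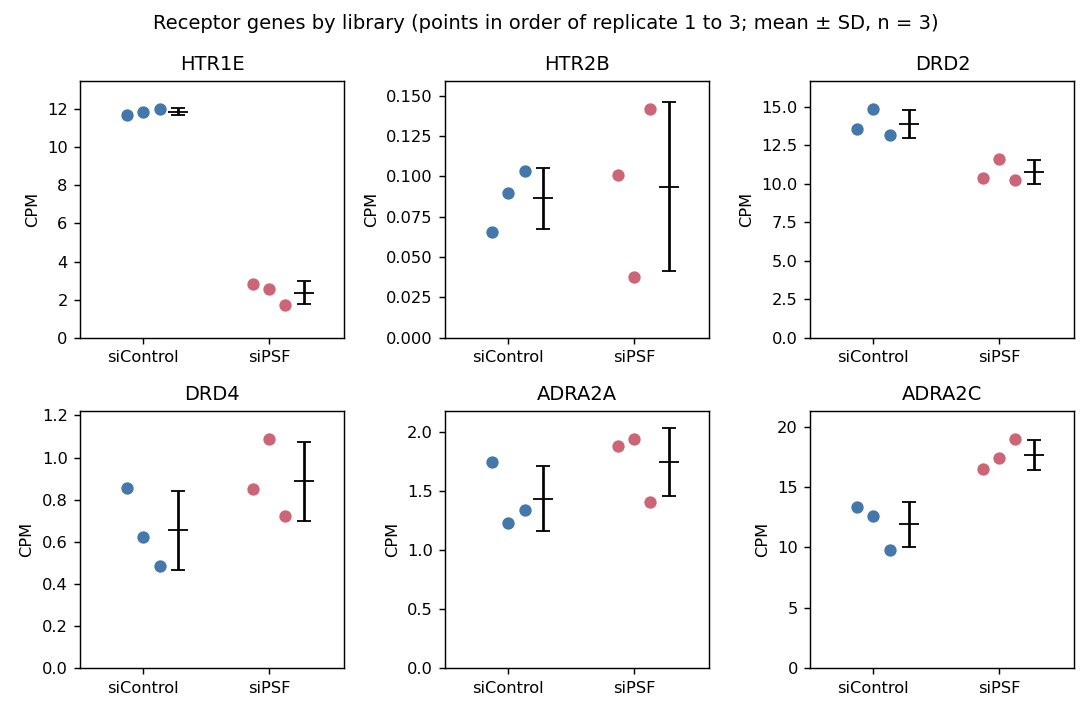
Levels of the 6 receptor genes in each library, in CPM on axes that start at 0, with siControl in blue and siPSF in red and with the mean and SD (n = 3) beside the points. HTR1E fell from about 12 CPM to between 1.69 and 2.85 CPM, ADRA2C rose without overlap between groups, DRD2 was lower without overlap, and the groups overlapped for HTR2B, DRD4 and ADRA2A.

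Among the other 5 receptor genes, 2 were called at a Benjamini-Hochberg adjusted p under 0.05 in the edgeR fit over all genes, DRD2 lower and ADRA2C higher. Of all genes tested, 14.9% were called, 8.27% lower and 6.65% higher, and in 34.4% the groups did not overlap. With 5 genes that were listed with results known, nothing further is read from the share that was called.

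ADRA2C encodes the alpha2C adrenergic receptor (gene ID 152) and is a gene of 1 exon on chromosome 4 from 3766385 to 3768526, on the plus strand. Its counts were 1625, 1678 and 1235 in siControl and 1962, 1835 and 1872 in siPSF. These gave 13.4, 12.6 and 9.81 CPM in siControl and 16.5, 17.4 and 19.0 CPM in siPSF. Every siPSF library lay above every siControl library, and the lowest siControl library stood apart from the other 2. The mean rose to 17.6 ± 1.25 CPM from 11.9 ± 1.87 CPM (SD, n = 3 each), 148% of the siControl level. The log2 fold change was 0.57 (standard error 0.13, 95% interval 0.29 to 0.84), and its adjusted p in the edgeR fit was 0.0115. The call was kept in 6 of 6 fits that each left out 1 library, with adjusted p-values from 0.0100 to 0.0406. In siPSF the order of the libraries for ADRA2C was opposite to that for SFPQ and HTR1E.

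ADRA2A, the gene of the alpha2A adrenergic receptor (gene ID 150), is likewise a single exon, on chromosome 10 from 111077029 to 111080907 on the plus strand. It was measured at 1.74, 1.23 and 1.33 CPM in siControl and at 1.88, 1.94 and 1.41 CPM in siPSF, from 139 to 223 counts per library. The groups overlapped, since the highest siControl library exceeded the lowest siPSF library. The log2 fold change was 0.28 (95% interval -0.17 to 0.73) and was not called, with an adjusted p of 0.396 from edgeR. The interval holds both 0 and the value found for ADRA2C.

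DRD2 encodes the dopamine receptor D2 (gene ID 1813) and lies on chromosome 11 from 113409605 to 113475398 on the minus strand, with 8 exons in 65.8 kb. Its counts were 1646, 1987 and 1663 in siControl and 1230, 1229 and 1012 in siPSF. The levels were 13.5, 14.9 and 13.2 CPM in siControl and 10.4, 11.6 and 10.3 CPM in siPSF. The groups did not overlap, and in each group the second library was the highest. The mean was 13.9 ± 0.896 CPM in siControl against 10.8 ± 0.770 CPM in siPSF (SD, n = 3 each), which left 77.5%. The log2 fold change was -0.37 (standard error 0.11, 95% interval -0.61 to -0.13), with an adjusted p of 0.041 from edgeR. This call was near the threshold. It was kept in 1 of 6 fits that each left out 1 library (without siPSF replicate 2, adjusted p = 0.048) and was lost in the other 5, with adjusted p-values up to 0.157 and the same direction in each.

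DRD4, the dopamine receptor D4 gene (gene ID 1815), lies on the same chromosome from 637269 to 640706 on the plus strand, with 4 exons in 3.44 kb. It gave between 61 and 115 counts per library, or 0.855, 0.622 and 0.484 CPM in siControl and 0.850, 1.09 and 0.720 CPM in siPSF. The groups overlapped. The log2 fold change was 0.44 (standard error 0.27, 95% interval -0.15 to 1.03), with an adjusted p of 0.304 from edgeR, so that neither no change nor a rise of about the size of that of ADRA2C was outside the interval.

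HTR2B, the second serotonin receptor gene measured (gene ID 3357), was near the limit of detection, with 8, 12 and 13 counts in siControl and 12, 4 and 14 in siPSF. Its log2 fold change was 0.11 with a 95% interval from -0.98 to 1.20 (edgeR, adjusted p = 0.916), and its sign depended on which library was left out. The gene lies on chromosome 2 from 231108230 to 231125042 on the minus strand, and all 16813 bases of it are inside PSMD1, a proteasome subunit gene on the plus strand. PSMD1 stood at 76.7 CPM in siControl against 79.2 CPM in siPSF. The use of strand in counting is not given in the sources used here, and without it reads of HTR2B and PSMD1 cannot be told apart.

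**Figure D2:**
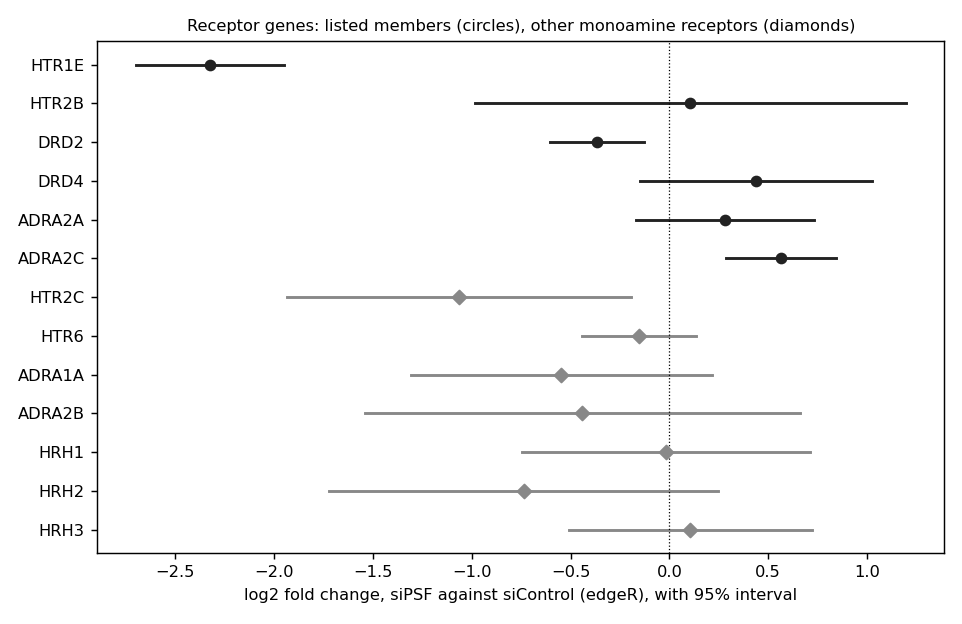
Log2 fold changes of the 6 listed receptor genes (circles) and of 7 further monoamine receptor genes (diamonds), siPSF against siControl, with the 95% interval of the edgeR fit. HTR1E lies at -2.33, apart from the other listed genes, which run from -0.37 (DRD2) to 0.57 (ADRA2C), and the intervals widen to over 1 on either side for the genes with few counts.

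Per exon length, the order of the 10 serotonin, dopamine and adrenergic receptor genes was not the same in both groups. In siControl ADRA2C was the highest at 5.17 ± 0.705 FPKM, followed by DRD2 at 4.72 ± 0.221 FPKM and HTR1E at 3.71 ± 0.0584 FPKM (SD, n = 3 each). ADRA2C and DRD2 overlapped in their libraries, while HTR1E lay below both and above the genes that followed it. The next of these 10 was HTR6, a serotonin receptor gene that was not on the list, at 1.53 FPKM, followed by DRD4 at 0.432 and ADRA2A at 0.343 FPKM, whose libraries overlapped. HTR2B was the lowest at 0.0296 FPKM and overlapped with its neighbour ADRA2B. In siPSF the order began with ADRA2C at 7.26 ± 0.462 FPKM and DRD2 at 3.48 ± 0.296 FPKM, and HTR1E stood in the fourth place at 0.647 ± 0.182 FPKM, below HTR6 at 1.30 FPKM. HTR1E then overlapped with DRD4, at 0.556 FPKM. The histamine receptor gene HRH3, outside this order, was at 1.68 ± 0.262 FPKM in siControl and 1.72 ± 0.910 FPKM in siPSF (SD, n = 3 each). Its libraries were at 1.97, 1.63 and 1.45 FPKM in siControl and at 1.31, 1.09 and 2.76 FPKM in siPSF, so the siPSF mean rests on replicate 3.

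**Figure D3:**
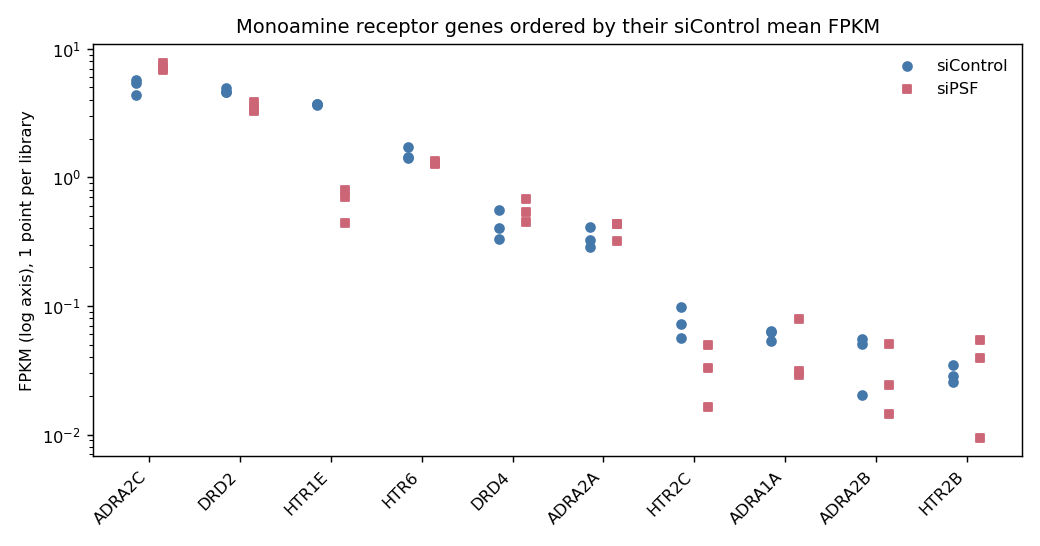
FPKM of 10 serotonin, dopamine and adrenergic receptor genes on a log axis, 1 point per library, ordered by the siControl mean. HTR1E, the third gene in siControl at 3.71 FPKM, is at 0.445 to 0.797 FPKM in the siPSF libraries (red squares), while ADRA2C is at 6.88 to 7.78 FPKM.

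Of the summed FPKM of the 6 genes, HTR1E made up 24.8, 25.2 and 27.4% in the siControl libraries and 6.63, 5.48 and 3.61% in the siPSF libraries. ADRA2C took 38.1, 36.3 and 33.0% in siControl and 57.3, 55.7 and 63.1% in siPSF. The part of DRD2 in the sum was 30.5, 33.6 and 34.4% in siControl and 27.7, 29.9 and 26.7% in siPSF. The ratio of ADRA2C to HTR1E within a library, which does not depend on library size, was 1.53, 1.44 and 1.20 in siControl and 8.64, 10.2 and 17.5 in siPSF. An implied exon length was computed from counts, FPKM and the summed counts of each library. That sum stands in for the mapped reads, so the implied length need not be the one by which the authors divided. For HTR1E it was not the same in all libraries, at 3191, 3202 and 3485 bases in siControl and 3515, 3494 and 3697 in siPSF. For ADRA2C, a single exon of 2142 bases, it stayed between 2353 and 2378 bases, which is longer than the gene. For DRD2 it stayed between 2936 and 3064 bases. For a given count a longer length gives a lower FPKM, so the shares and the ratio above carry the drift of HTR1E. What moved the implied length of HTR1E, for which the table lists 2 RefSeq transcripts, was not tested.

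Of 21 further serotonin, dopamine and adrenergic receptor genes, 4 had a row and 0 were called by edgeR or by DESeq2, while 1 of the 4, HTR2C, was under 0.05 before adjustment in the edgeR fit. HTR2C, a serotonin receptor gene that couples to phospholipase C, had 63, 40 and 46 counts in siControl and 22, 30 and 9 in siPSF, without overlap. Its log2 fold change was -1.06 (standard error 0.40, edgeR adjusted p = 0.0946), and with so few counts its interval reached from -1.93 to -0.19 and it was called in 1 of 6 fits without a library. HTR6, whose receptor stimulates adenylyl cyclase, was at 6.23 CPM in siControl against 5.60 CPM in siPSF, a log2 difference of -0.15 (edgeR adjusted p = 0.479). The adrenergic receptor genes ADRA1A and ADRA2B did not exceed 0.296 CPM in any library, with log2 fold changes of -0.55 and -0.44. Of 10 histamine and trace amine receptor genes 3 were in the table, and for these HRH1, HRH2 and HRH3 the log2 fold changes were -0.02, -0.74 and 0.11, again with 0 calls by either tool and 0 under 0.05 before adjustment in the edgeR fit. Within the serotonin receptors the fall of HTR1E thus stood beside a value of the same sign in HTR2C that did not pass the test and a value close to no change in HTR6. No test of the difference between these genes was made.

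The genes next to the receptors were compared to place each receptor in its stretch of chromosome. HTR1E has no tested protein-coding gene nearer than ZNF292, a zinc finger gene 139 kb beyond its 3′ end, which was at 51.3 CPM in siControl against 45.7 CPM in siPSF (log2 fold change -0.17, edgeR adjusted p = 0.476). Without siPSF replicate 3 ZNF292 was at -0.36 and was called (adjusted p = 0.045). On the other side the nearest was SYNCRIP, an RNA-binding protein gene 1294 kb away, where the log2 difference was 0.06 (edgeR adjusted p = 0.737). Within 1 Mb of HTR1E, a distance chosen after the values were seen, 11 genes were tested, with a median log2 fold change of 0.21. Of these 1 was called lower and 1 higher, beside 8.27% and 6.65% over all genes tested. The lower gene was the lncRNA gene LOC101928842 at -1.17 and the higher gene C6orf163 at 1.51. RPL7P29, a ribosomal protein pseudogene inside HTR1E and on the same strand, went from 0.178 to 0.364 CPM, with a log2 fold change of 1.04 that was not called (edgeR adjusted p = 0.0984).

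Genes called lower and genes called higher lay within 1 Mb of each of the 6 receptor genes. Over all genes tested 14.9% were called, so these counts are not read as particular to the receptors. Beside DRD2, ANKK1, a kinase gene 9.19 kb beyond its 3′ end on the opposite strand, was at 0.358 CPM in siControl against 0.994 CPM in siPSF (log2 fold change 1.47, edgeR adjusted p = 0.0156), a call kept in 4 of 6 fits that left out a library. TMPRSS5, a transmembrane protease gene 212 kb away on the other side, was lower (log2 fold change -0.99, edgeR adjusted p = 0.0354), a call kept in 1 of 6 fits without a library. Of the 14 genes tested within 1 Mb of DRD2, 3 were lower and 2 higher. Next to DRD4, IRF7, an interferon regulatory factor gene 21.3 kb away, was lower (log2 fold change -0.39, edgeR adjusted p = 0.0223, kept in 2 of 6 such fits), while DEAF1, 3.53 kb away, was not called. The nearest genes of ADRA2C, LRPAP1 and TMEM128, had log2 fold changes of -0.11 and -0.05, and those of ADRA2A, SHOC2 and GPAM, 0.33 and -0.05, with 0 of these 4 called by edgeR and 1 under 0.05 before adjustment, SHOC2, which DESeq2 called (adjusted p = 0.042). Further from ADRA2C, 5 of the 21 genes tested within 1 Mb were called, 2 lower and 3 higher, among them HGFAC (0.95) and the lncRNA gene LOC101928279 (-2.55), both named after their values were seen. C2orf72 and ARMC9, on either side of PSMD1 and HTR2B, had log2 fold changes of -0.17 and -0.28 and were not called by edgeR, while DESeq2 called ARMC9 (adjusted p = 0.047).

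**Figure D4:**
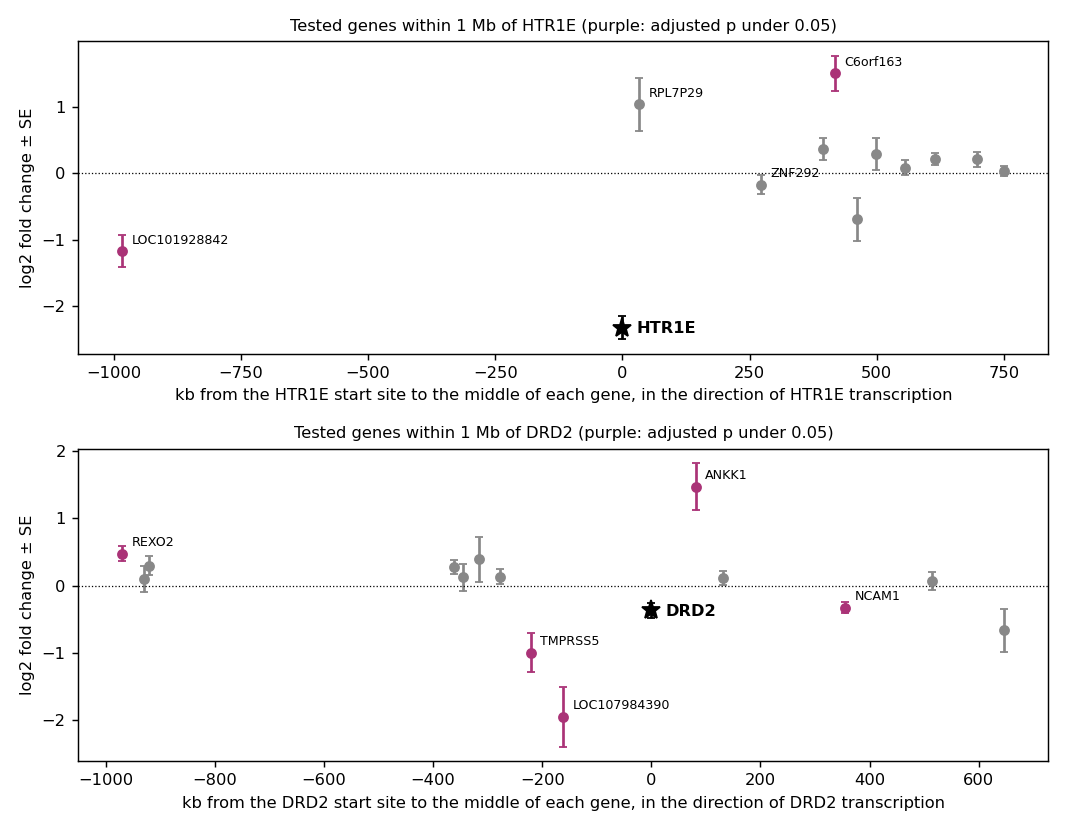
Log2 fold change ± SE of every tested gene within 1 Mb of HTR1E (top) and DRD2 (bottom), by the distance in kb from the start site of the receptor gene (star) to the middle of each gene. HTR1E, at -2.33, lies below all 11 genes around it, which have a median of 0.21, and the genes around DRD2 include called genes (purple) on both sides of zero.

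The 2 receptor genes that were lower, HTR1E and DRD2, were also the longest of the 6, at 79.2 and 65.8 kb, and the other 4 were between 2.14 and 16.8 kb. Among all tested protein-coding genes of 50 to 100 kb, 7.68% were called lower and 4.79% higher, with a median log2 fold change of -0.01. In genes under 50 kb 3.87% were lower and 8.44% higher, and in genes of 100 kb or more 25.1% were lower. HTR1E and DRD2 thus fell in the middle class, and the part of gene length in their values was not tested.

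The genes whose pattern over the 6 libraries was most like that of HTR1E, by Pearson's r of log2 CPM among the 14678 genes that averaged 1 CPM or more, were the lncRNA gene LOC105378114 (r = 0.9996), CAMK1D (0.9988), RAB3C (0.9984), CNTNAP2 (0.9983), COLQ (0.9980) and SCFD2 (0.9978). CAMK1D encodes a calmodulin-dependent kinase, RAB3C a small GTPase of synaptic vesicles, CNTNAP2 a neuronal adhesion protein and COLQ the collagen tail of acetylcholinesterase. Their log2 fold changes ran from -1.89 in LOC105378114 to -0.68 in CAMK1D, all smaller than that of HTR1E. Such values are a description, since the 6 points form 2 groups and any gene that differs between the groups gets a high r. For the other receptor genes r with HTR1E was 0.922 for DRD2, 0.507 for HTR6, -0.447 for ADRA2A and -0.910 for ADRA2C.

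To place the receptors in their pathway, lists of genes around them were read from the same fit. Over 6 lists, which include the further receptors above, 84 of 121 genes were tested, and 16 were lower and 5 higher (25.0% called, median log2 fold change -0.09), beside 14.9% and a median of 0.01 over all genes. Among the 24 G protein subunit genes tested, 5 were lower and 2 higher, with a median of -0.06. GNG7, a gamma subunit gene, was at 16.1, 13.1 and 12.6 CPM in siControl and 6.81, 6.16 and 5.86 CPM in siPSF (log2 fold change -1.15, edgeR adjusted p = 2.0e-04). The gamma subunit genes GNG8, GNG11 and GNG4 were lower as well, at -0.64, -0.42 and -0.40, and GNG10 and the beta subunit gene GNB3 were higher, at 0.50 and 0.43, calls kept in 4 and 2 of 6 fits without a library. GNAO1, the alpha subunit gene of the Go protein, was the other gene called lower, at -0.39 (edgeR adjusted p = 0.041). That call was near the threshold and was not followed in the fits without a library, and GNAO1 is named here after its values were seen.

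Among the 14 effector genes, 5 were lower and 1 higher (42.9% called, median -0.28). PLCB1, a phospholipase C gene downstream of receptors such as that of HTR2B, was at 8.76, 10.1 and 10.2 CPM in siControl and 4.90, 4.87 and 3.43 CPM in siPSF (log2 fold change -1.14, edgeR adjusted p = 5.9e-04), without overlap. KCNJ3, which encodes a subunit of the potassium channel opened by inhibitory receptors, was at 10.5 CPM in siControl against 7.14 CPM in siPSF (-0.56, edgeR adjusted p = 0.0100). KCNJ9, another subunit of that channel, was higher at 0.39, a call lost in 8 of 13 alternatives and kept in 1 of 6 fits without a library. The adenylyl cyclase genes ADCY3 and ADCY9 were lower at -0.48 and -0.54, and PLCB4 at -0.40. In fits without a library, the call of ADCY3 was kept in 6 of 6, of ADCY9 in 3 and of PLCB4 in 2.

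Of 22 genes for receptor kinases, arrestins and RGS proteins, which end or dampen receptor signalling, 3 were lower and 2 higher (22.7% called, median -0.05). RGS7, a regulator of inhibitory alpha subunits, was at 5.20 CPM in siControl against 2.50 CPM in siPSF (log2 fold change -1.06, edgeR adjusted p = 0.0017). RGS4 was higher at 0.72, with a wide spread in siPSF (116 ± 38.8 CPM, SD, n = 3) and a call lost in 8 of 13 alternatives, and without siPSF replicate 3 its log2 fold change was 0.41. RGS14 was higher at 0.44, and ARRB1, an arrestin gene, and RGS16 were lower at -0.39 and -0.38. RGS14 and ARRB1 kept their calls in 4 of 6 fits without a library and RGS16 in 5. Of 17 genes of monoamine synthesis, transport and breakdown 3 were lower and 0 higher (17.6% called, median -0.13). Over all genes tested 14.9% were called, 8.27% lower and 6.65% higher, so nothing further is read from these counts. Also at an unadjusted p under 0.05 and in the DESeq2 fit, 0 of the 17 were higher. DBH, which makes noradrenaline, the ligand of ADRA2A and ADRA2C, was lower in siPSF, at 1085 ± 77.3 CPM against 1738 ± 285 CPM in siControl (SD, n = 3 each, log2 fold change -0.68, edgeR adjusted p = 0.0024). SLC6A2, the noradrenaline transporter gene, was lower at -0.30 (edgeR adjusted p = 0.0377), a call kept in 2 of 6 fits without a library. TH, named here after its values were seen, was lower at -1.20 (edgeR adjusted p = 0.0245) from a low level of 0.220 FPKM.

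**Figure D5:**
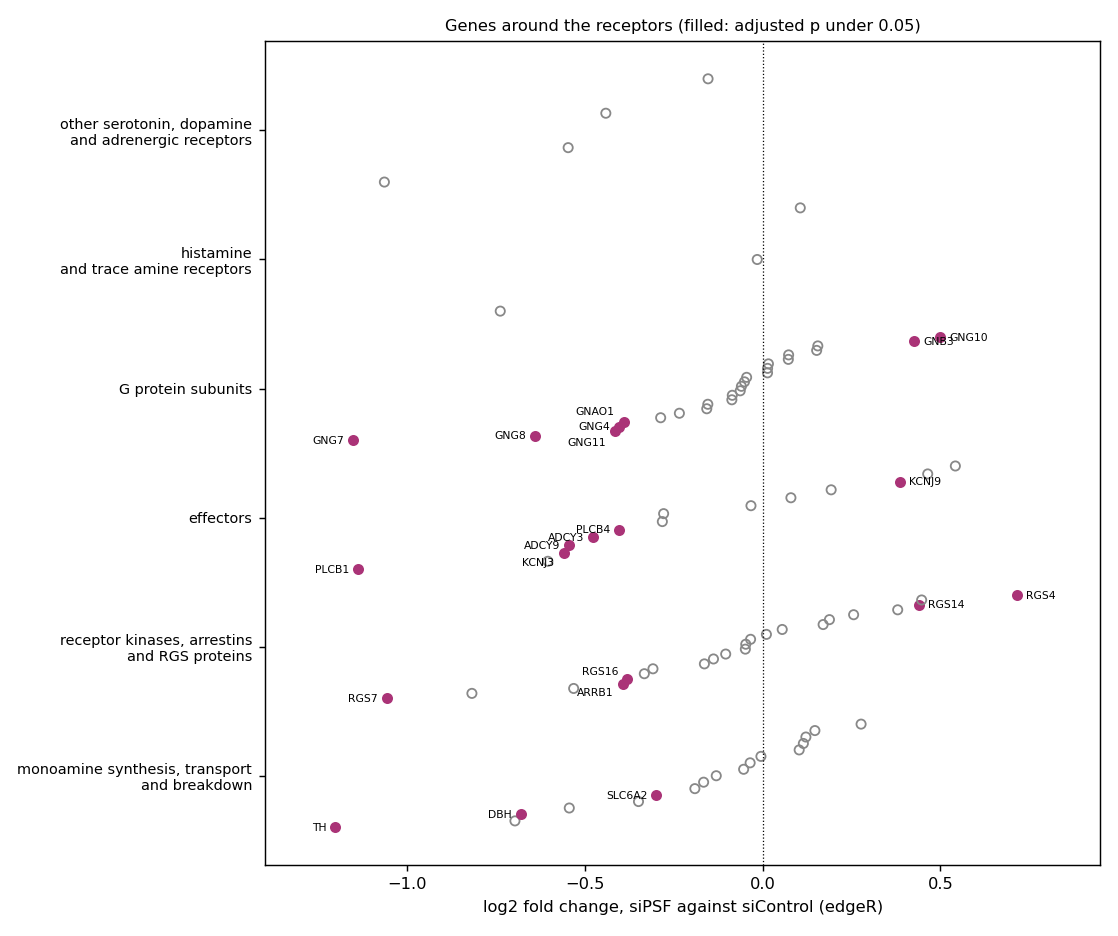
Log2 fold change, siPSF against siControl, of each tested gene of the 6 lists around the receptors, with 1 point per gene and called genes filled and named. Of 84 genes, 16 were called lower and 5 higher, and the further receptor genes in the 2 upper rows had 0 calls in the edgeR fit.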

How the data were processed

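Poly(A) RNA of SH-SY5Y cells was sequenced from 3 siControl and 3 siPSF libraries, grouped by the sample titles. To make the table, the authors counted reads on RefSeq genes of GRCh38 and deposited raw counts beside FPKM values for every gene and library, the FPKM being divided by exon length and mapped reads. The submitters' processing notes name Trimmomatic, HISAT2 2.1.0 and StringTie 2.1.3b, whereas the study's methods name TopHat and RPKM, and which of these made the deposited values is not given in the sources used here. The labels name a stranded kit. No count in the table is below 1, and genes without a read in a library were not analysed here.

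The members and lists were chosen with earlier results of these data known. Counts were fitted with edgeR 4.0.16 in R 4.3.3 (TMM, factors 0.964 to 1.05, filterByExpr, quasi-likelihood test, no replicate block, common biological coefficient of variation 12.6%), and p-values were adjusted by Benjamini-Hochberg over all 19694 genes. Replicates numbered alike did not deviate together (r = -0.022, 0.050 and 0.055), so numbers were not taken as pairs. Chi-square per degree of freedom between libraries of a group was at least 20.8, so the libraries differed by more than the sampling noise. In both groups replicate 3 stood furthest from the others. Pairs with it had 61.2 and 57.1 in siControl, against 33.5 for replicates 1 and 2. In siPSF they had 54.4 and 59.85, against 20.8. Alternatives were leaving out each library, a replicate block, DESeq2 1.42.0 size factors or Wald test, no filter, and limma 3.58.1 on log2(FPKM + 0.5) or + 0.1 of genes with a mean FPKM of at least 0.5, or of all genes. Genes were named by rule: the 9 members, related receptors of the table (1 that the rule selects is not reported here and is left out of the lists), up to 6 called genes per list of at least 1 CPM with the largest change, the nearest tested protein-coding and overlapping genes, and the 6 most like HTR1E. Positions came from RefSeq (GRCh38.p14, 97.6% of gene IDs matched) and exons from GENCODE. Python 3.11.15, pandas 2.3.3 and numpy 2.4.6 were used.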

Additional observations from a re-analysis of the deposited data

How the results depend on the processing

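The fall of HTR1E kept its direction under all 13 alternatives, with log2 fold changes from -2.49 to -1.89, the smallest with limma on log2(FPKM + 0.5), which understates low genes by construction. ADRA2C stayed called and higher under all 13. DRD2 kept its direction under all 13 (-0.43 to -0.32) and was called in each that used all 6 libraries. Without 1 library, between 1 and 2 of the receptor genes other than HTR1E were called, ADRA2C in every such fit. The genes called numbered 1500 to 3140 over all genes and 9 to 23 in the signalling lists, against 2938 and 21 with all libraries. The lowest counts came without siControl replicate 2 (1500 and 9) and without siControl replicate 3 (1754 and 13), and without siPSF replicate 1 the lists had 13. Those fits hold fewer libraries, and no further cause was tested.

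With a replicate block 3029 genes were called, and 22 in the signalling lists. Of the 44 named genes refitted, SHOC2 became called at 0.33 (adjusted p = 0.027) and no other gained or lost a call. siControl replicate 1 correlated better with siPSF replicate 2 than with its own number. Of the genes called, 55.4% were lower in the edgeR fit, while limma on log2(FPKM + 0.5) called 1782 lower and 736 higher (70.8% lower). The median of all genes stayed within 0.1 of 0 on the log2 scale under each scaling.

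Signs turned for genes that were not called. Without 1 library the log2 fold change ran from -0.29 to 0.47 for HTR2B, from -0.29 to 0.17 for HRH1, from -0.42 to 0.35 for HRH3, from -0.21 to 0.057 for GPAM, from -0.20 to 0.0063 for LRPAP1 and from -0.11 to 0.016 for TMEM128. HRH3 was at -0.073 and SYNCRIP at -0.049 with limma on log2(FPKM + 0.1), HRH3 at -0.045 and SYNCRIP at -0.048 with + 0.5, with or without a filter, and HRH3 at -0.0049 with the replicate block. The cause was not tested. Of 551 values for 44 named genes, 461 kept their direction and their side of the threshold, 61 lost the call, 8 gained it, 19 turned sign and 2, both of HTR1E, moved by more than the spread. Depth limits the receptor genes with the fewest counts, HTR2B, HRH2, ADRA2B, ADRA1A, HTR2C and HRH1, and to a lesser extent DRD4.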
